A study of Canis lupus familiaris with 34 samples.

Results

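Vessel rich and vessel poor osteosarcomas of the dog were compared by RNA sequencing of bulk tumour tissue. The deposited table holds 34 libraries, of which 30 are primary tumours. The title of DOS.46.2 repeats the number of DOS.46. The pair of DOS.100 and DOS.32 was more alike than any other among the primary tumour libraries (r = 0.844 between their deviations from the tumour mean, across genes). Each of these pairs was averaged and counted as 1 tumour, which left 28 tumours. The groups were chosen by a score, the mean log2(FPKM + 1) of PLVAP, PECAM1 and CDH5: the 9 highest tumours are called vessel rich and the 9 lowest vessel poor, 18 of 28 in all. The 10 tumours between them entered no test.

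The labels describe every primary tumour library of both groups in the same words, as bone tumour tissue of the Golden Retriever breed, and give no treatment, time, sex, age or batch. They do not say whether the tumours came from separate dogs, so p-values measure the spread between these tumours. The series' design text also mentions Rottweilers, so the breed of a given tumour is uncertain. The groups are therefore not conditions set by the study. They were formed from measured values of the same libraries, the difference in the 3 score genes is a description, and those genes were left out of the test. The remaining libraries are 1 metastasis (DOS.6M), OSCA.78 and OSCA.8, both lines of osteosarcoma cells, and CNOB, labelled as a cell line from osteoblasts, which are bone-forming cells.

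Blood vessels are lined by endothelial cells, which meet at junctions built from the cadherin CDH5 and the adhesion molecule PECAM1. PLVAP forms the diaphragms that span pores and vesicles of the endothelium in small vessels. Endothelial cells carry receptors for VEGF and angiopoietin ligands, are instructed by ETS and SOX factors, signal through NOTCH, rest on a basement membrane of type IV collagen and laminin, and in small vessels are wrapped by pericytes. The gene roles named below are known mainly from human and mouse.

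**Figure D1:**
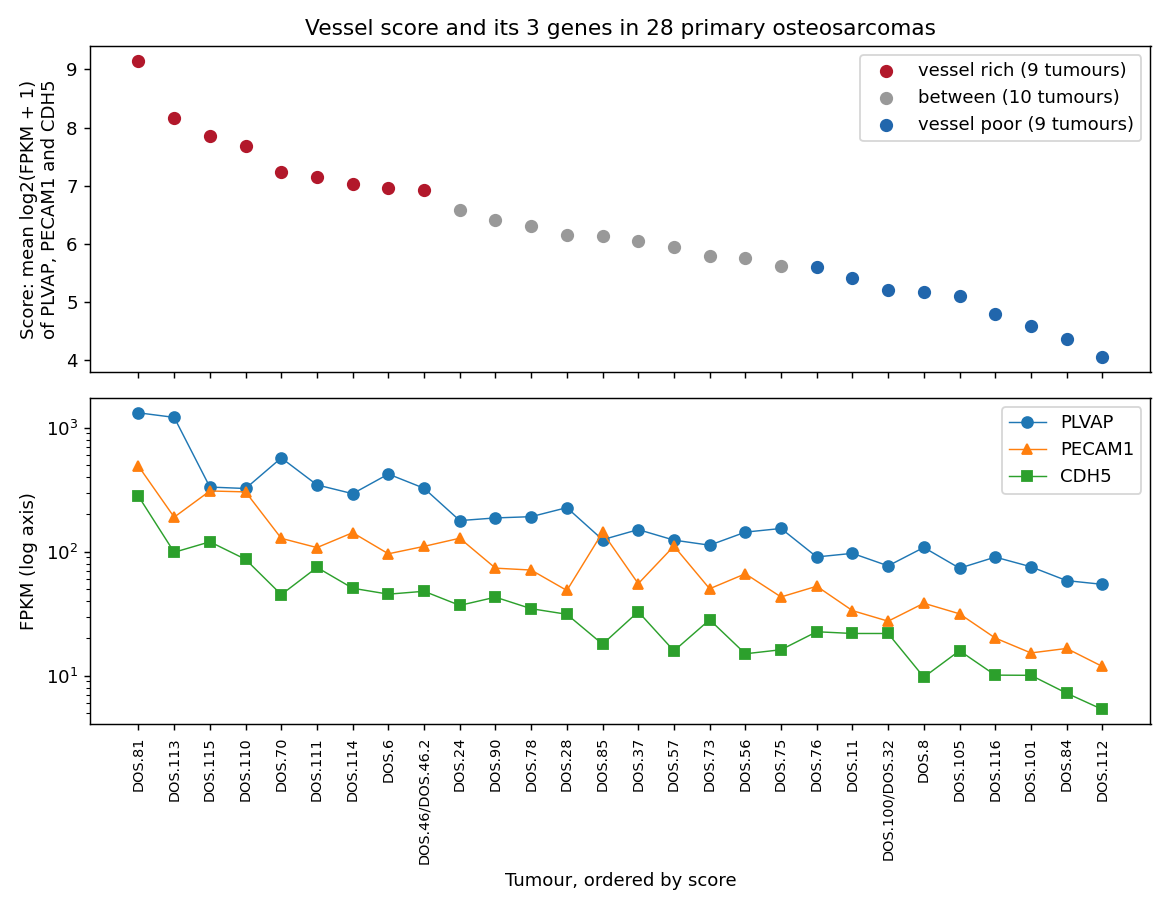
Upper panel: the score of each of 28 primary tumours, the mean log2(FPKM + 1) of PLVAP, PECAM1 and CDH5, ordered by score and coloured by group (9 vessel rich, 10 between, 9 vessel poor). Lower panel: FPKM of the 3 genes in the same tumours on a log axis. The scores run without a wide gap between 9.15 in DOS.81 and 4.05 in DOS.112, and the 3 genes do not order the tumours alike.

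PLVAP had 294 FPKM in the lowest, 346 in the median and 1320 in the highest vessel rich tumour, against 54.6, 77.0 and 108 FPKM in the vessel poor tumours. PECAM1 had 96.3, 143 and 490 FPKM in the vessel rich tumours, against 11.9, 27.6 and 52.8 FPKM in the vessel poor tumours. CDH5 had 45.1, 74.8 and 280 FPKM in the vessel rich tumours, against 5.36, 10.1 and 22.7 FPKM in the vessel poor tumours. The groups do not overlap in any of the 3 genes. At the upper limit the last vessel rich tumour, DOS.46/DOS.46.2, scored 6.92 and the next one down, DOS.24, scored 6.58. At the lower limit DOS.76 scored 5.611 and DOS.75, just outside, scored 5.617, so membership of DOS.76 rests on a very small difference. The genes differ in their order: DOS.113 had 1213 FPKM of PLVAP and 190 FPKM of PECAM1, while DOS.115 had 333 FPKM of PLVAP and 309 FPKM of PECAM1.

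The libraries of the groups were similar in the number of genes with a value above 0 (16727 to 17637 in vessel rich tumours, 16454 to 17742 in vessel poor tumours). The 10 most abundant genes held 9.65% to 37.5% of the summed FPKM in vessel rich tumours (median 17.4%), against 7.14% to 21.5% in vessel poor tumours (median 11.4%). The FPKM worth 1 fragment, relative to the median library, was read from low values and was 0.856 to 2.03 in vessel rich tumours, against 0.838 to 1.13 in vessel poor tumours. By this figure DOS.113 was the shallowest of these libraries. The part of these differences in the results was not tested. DOS.110 and DOS.115, both vessel rich, followed the 2 averaged pairs in likeness (r = 0.671). The value was 0.729 for DOS.46 with DOS.46.2 and 0.468 for the next pair. The labels do not say whether DOS.110 and DOS.115 came from 1 tumour. The main fit counted them as 2, so its standard errors and p-values may be too small if they share 1. Counts are given below with both left out as well, a choice made after seeing the data.

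Of 14909 genes tested, 424 passed limma at an adjusted p below 0.05, which is 2.84%. In the vessel rich tumours 383 were higher (2.57%) and 41 lower (0.275%). Every vessel rich tumour lay above every vessel poor tumour in 91 genes (0.61%), and below in 3 (0.0201%). The median log2 fold change over all genes tested was 0.00. With both DOS.110 and DOS.115 left out, 240 genes were higher and 12 lower. Without DOS.81, the tumour with the highest score, 259 were higher and 17 lower, and the total was 276. In bulk tissue, fewer endothelial cells and less endothelial RNA per cell cannot be told apart, so vessel rich here means rich in transcripts of endothelial genes.

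**Figure D2:**
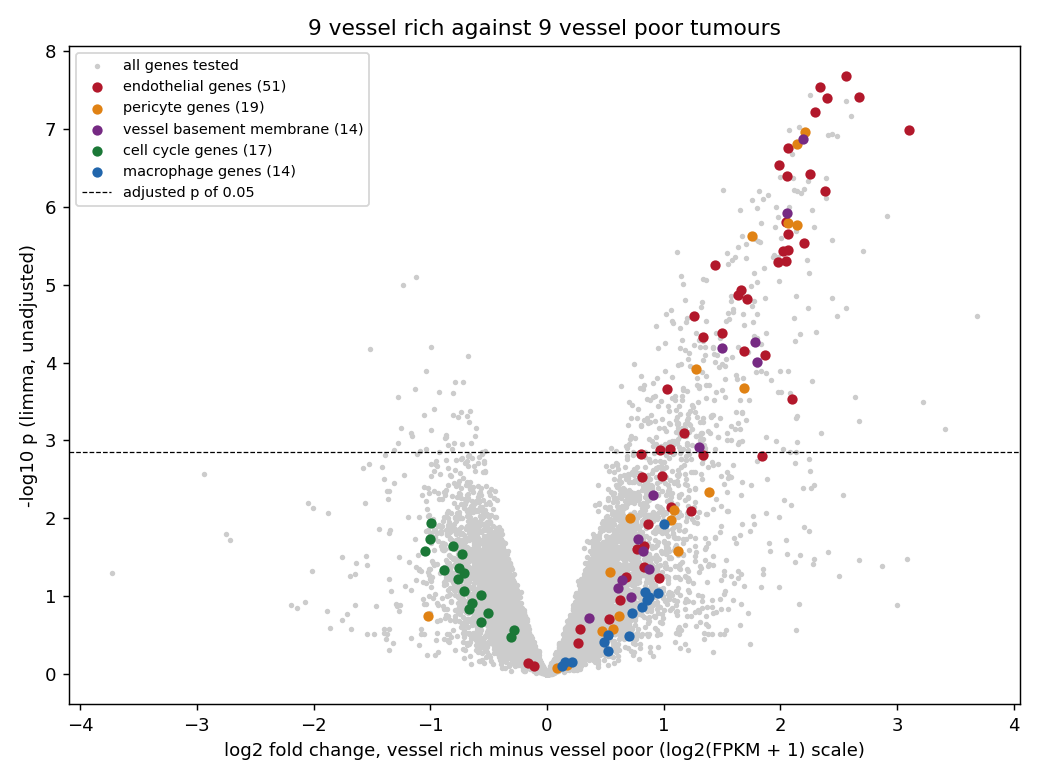
Each point is 1 of 14909 genes. The x axis gives the log2 fold change, vessel rich minus vessel poor, on the log2(FPKM + 1) scale, and the y axis the unadjusted limma p as -log10. Colours mark 5 gene lists and the dashed line the adjusted p of 0.05. The called genes are mostly on the right (383 against 41), the 17 cell cycle genes all have negative values, and no cell cycle or macrophage gene is above the line.

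Endothelial genes other than the score genes were higher in the vessel rich tumours. The 3 endothelial lists (receptors and signalling, junction and surface proteins, transcription factors) hold 69 genes, of which 53 have a row under their symbol and 51 passed the filter on low values. Of these 51, 32 were higher and none lower, with a median log2 fold change of 1.502, where 2.57% of all genes tested were higher with a median of 0.00. Every vessel rich tumour lay above every vessel poor tumour in 18 of them, against 0.61% of all genes tested. The lists were chosen to mark the cell type that the score marks. The summed FPKM of the 51 genes was 1160 to 3322 in vessel rich tumours (median 1662), against 579 to 1173 in vessel poor tumours (median 718). For 46 of the 51, the median of the 10 tumours between the groups lay between the medians of the groups. The same score placed those tumours there, so this is a description and no separate support. The share over all genes tested was not computed. The number of endothelial genes called higher was 28 with both DOS.110 and DOS.115 left out (240 over all genes tested). It was 25 with the score of cell cycle genes as a term (168 over all genes tested).

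Receptors and signalling proteins made up the list with the highest share called: 15 of 20 tested were higher (2.57% of all genes tested), with a median log2 fold change of 2.04. TEK, the receptor of the angiopoietins, had 7.09, 17.9 and 44.9 FPKM in the lowest, median and highest vessel rich tumour, against 0.633, 2.29 and 4.12 FPKM in the vessel poor tumours. Its log2 fold change, vessel rich over vessel poor on the log2(FPKM + 1) scale, was 2.68 ± 0.32 (limma adjusted p = 1.09e-04; here and below ± gives the standard error of the fit with 9 tumours in each group). Each vessel rich tumour had more TEK than any vessel poor tumour. TIE1, its co-receptor, had 16.6, 24.8 and 104 FPKM in vessel rich tumours, against 1.97, 4.15 and 12.5 FPKM in vessel poor tumours (log2 fold change 2.38 ± 0.34, limma adjusted p = 2.94e-04). Again the groups did not overlap.

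APLNR, the receptor of apelin, showed the largest fold change among endothelial genes. It had 12.1, 38.2 and 136 FPKM in vessel rich tumours, against 1.40, 2.44 and 6.14 FPKM in vessel poor tumours (log2 fold change 3.10 ± 0.39, limma adjusted p = 1.22e-04). The tumours with the most APLNR were DOS.81 with 136 FPKM and DOS.115 with 58.7 FPKM, and all 9 vessel rich tumours were above the vessel poor range. The adhesion receptor ELTD1, a GPCR of endothelium, had 20.9, 30.2 and 80.9 FPKM in vessel rich tumours, against 2.32, 4.64 and 11.5 FPKM in vessel poor tumours (log2 fold change 2.56 ± 0.29, limma adjusted p = 1.09e-04). The lectin CLEC14A (2.29 ± 0.28, limma adjusted p = 1.22e-04) and the guidance receptor ROBO4 (2.06 ± 0.27, limma adjusted p = 1.46e-04) also separated the groups without overlap.

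Among VEGF receptors, FLT1 had 10.8, 19.8 and 48.2 FPKM in vessel rich tumours, against 1.02, 4.08 and 7.67 FPKM in vessel poor tumours (log2 fold change 2.06 ± 0.32, limma adjusted p = 6.27e-04). FLT4, the receptor of VEGFC, had 10.2, 17.5 and 69.1 FPKM in vessel rich tumours, against 4.08, 6.79 and 8.11 FPKM in vessel poor tumours (log2 fold change 1.502 ± 0.29, limma adjusted p = 4.60e-03). Both genes were also present in the cultures: FLT1 had 7.10 FPKM in CNOB, 3.62 in OSCA.78 and 5.56 in OSCA.8, and FLT4 had 5.41, 9.79 and 11.9 FPKM there, levels within or above the vessel poor range. TEK, by contrast, was below 0.1 FPKM in all 3 cultures and APLNR was listed at 0. ENG, a co-receptor of TGF beta signalling, was higher as well (1.71 ± 0.30, limma adjusted p = 2.24e-03), with 41.3, 92.1 and 194 FPKM in vessel rich tumours, against 11.4, 34.0 and 40.9 FPKM in vessel poor tumours. Of the receptors that could have been named, KDR has no row under its symbol.

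Junction and surface proteins followed, with 11 of 17 tested higher (2.57% of all genes tested) and a median log2 fold change of 1.64. ESAM, an adhesion molecule of endothelial tight junctions, had 17.3, 31.7 and 82.9 FPKM in vessel rich tumours, against 3.79, 6.73 and 8.98 FPKM in vessel poor tumours (log2 fold change 2.34 ± 0.27, limma adjusted p = 1.09e-04). The matrix protein of endothelium MMRN2 had 37.6, 52.4 and 156 FPKM in vessel rich tumours, against 6.28, 10.5 and 18.8 FPKM in vessel poor tumours (log2 fold change 2.40 ± 0.28, limma adjusted p = 1.09e-04). The sialomucin EMCN had 17.7, 32.2 and 95.2 FPKM in vessel rich tumours, against 3.24, 8.47 and 13.02 FPKM in vessel poor tumours (log2 fold change 2.25 ± 0.31, limma adjusted p = 2.57e-04). None of these genes overlapped between the groups. PROCR, the receptor of protein C, overlapped through DOS.8 alone, the vessel poor tumour with 14.4 FPKM. It had 13.1, 24.7 and 35.2 FPKM in vessel rich tumours and 2.63, 4.82 and 14.4 FPKM in vessel poor tumours (log2 fold change 1.99 ± 0.27, limma adjusted p = 2.20e-04). VWF, CD34 and CLDN5 have no row under their symbols.

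Endothelial transcription factors showed smaller fold changes, with 7 of 15 tested higher (2.57% of all genes tested) and a median log2 fold change of 1.03. ERG, an ETS factor, had 8.71, 12.8 and 28.1 FPKM in vessel rich tumours, against 3.05, 5.20 and 9.21 FPKM in vessel poor tumours (log2 fold change 1.26 ± 0.23, limma adjusted p = 3.20e-03). SOX18 had 5.72, 14.3 and 50.8 FPKM in vessel rich tumours, against 2.02, 3.88 and 5.78 FPKM in vessel poor tumours (log2 fold change 1.98 ± 0.32, limma adjusted p = 9.75e-04). The ranges of ERG and SOX18 overlapped at their edges. BCL6B, a zinc finger repressor of endothelium, was the 1 factor without overlap, with 8.62, 14.97 and 61.0 FPKM in vessel rich tumours, against 1.10, 3.23 and 5.05 FPKM in vessel poor tumours (log2 fold change 2.05 ± 0.31, limma adjusted p = 4.92e-04). LMO2, shared by blood and endothelial progenitors, was also higher (1.66 ± 0.29, limma adjusted p = 1.86e-03). SOX17 was higher (1.87 ± 0.38, limma adjusted p = 7.05e-03), a call that ended with the score of cell cycle genes as a term (adjusted p = 0.0696).

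**Figure D3:**
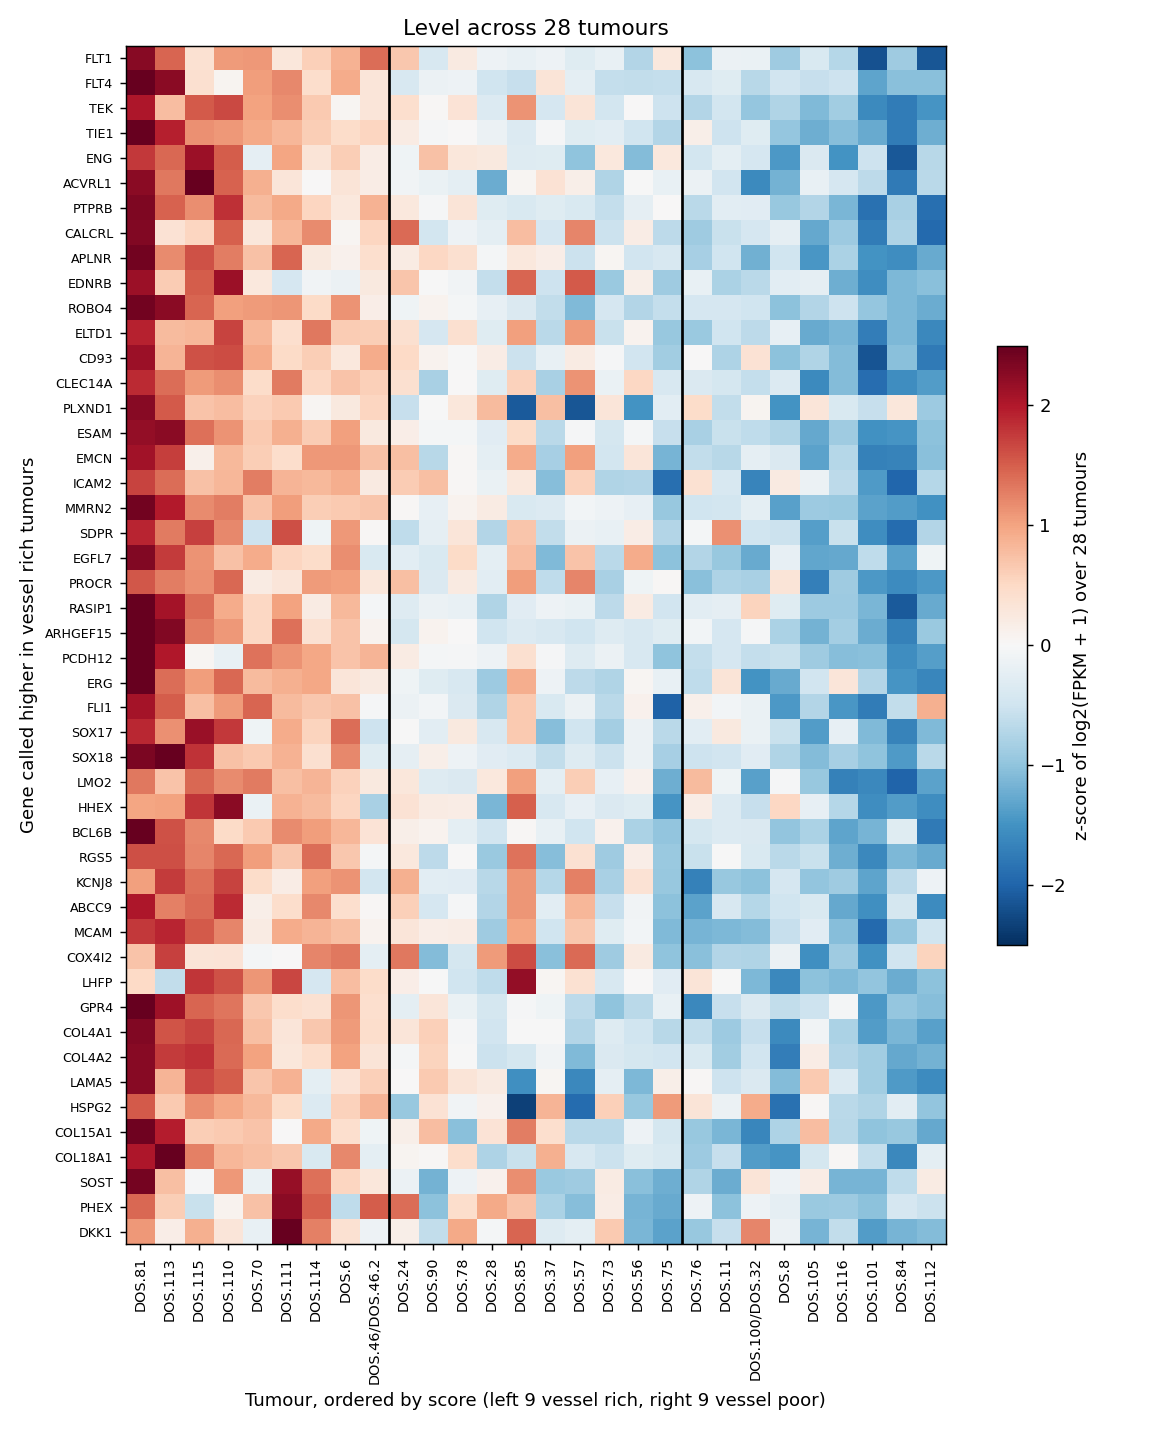
Levels across 28 tumours of the 32 endothelial, 7 pericyte, 6 vessel basement membrane and 3 osteocyte genes called higher in vessel rich tumours, as z-scores of log2(FPKM + 1) over the 28 tumours. Columns are ordered by score, with lines after the 9 vessel rich and before the 9 vessel poor tumours. DOS.81 is dark red in most rows, while DOS.85, a tumour between the groups, is red in TEK, EDNRB, RGS5 and KCNJ8.

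Genes of arteries and of NOTCH signalling were higher for 6 of 12 members tested, against 2.57% of all genes tested (median log2 fold change 1.199). NOTCH4, the NOTCH receptor of endothelium, had 7.47, 10.2 and 50.2 FPKM in vessel rich tumours, against 0.773, 2.19 and 6.92 FPKM in vessel poor tumours (log2 fold change 1.99 ± 0.34, limma adjusted p = 1.53e-03), without overlap. Its ligand DLL4, a marker of sprouting tip cells, had 8.88, 22.8 and 77.6 FPKM in vessel rich tumours, against 4.33, 6.89 and 13.2 FPKM in vessel poor tumours (log2 fold change 1.73 ± 0.35, limma adjusted p = 6.57e-03). The DLL4 call ended when 14 tumours were set against 14 (adjusted p = 0.0572). GJA4, a connexin of arterial endothelium, had 7.75, 33.2 and 50.8 FPKM in vessel rich tumours, against 2.05, 5.72 and 11.5 FPKM in vessel poor tumours (log2 fold change 2.39 ± 0.33, limma adjusted p = 2.57e-04), and was listed at 0 in all 3 cultures. The ligand JAG2 was higher (1.499 ± 0.31, limma adjusted p = 8.71e-03), a call lost with the score of cell cycle genes as a term (adjusted p = 0.0605).

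The tip cell and sprouting list gave 1 called member of 9 tested, DLL4, with a median log2 fold change of 0.75 (2.57% of all genes tested were higher). In the list of venous and leukocyte adhesion genes 2 of 8 were higher, APLNR and the chemokine CCL14 (2.48 ± 0.46, limma adjusted p = 3.20e-03). CCL14 had 9.20, 28.1 and 91.4 FPKM in vessel rich tumours, against 0.609, 3.88 and 11.4 FPKM in vessel poor tumours. Of the lymphatic list 4 of 8 genes were tested, and FLT4 was the only member called. PROX1, the factor that defines lymphatic endothelium, was in the table but below the filter, and the hyaluronan receptor LYVE1 missed the threshold with 17.4, 46.1 and 76.3 FPKM in vessel rich tumours, against 6.78, 18.51 and 68.8 FPKM in vessel poor tumours (log2 fold change 1.21 ± 0.40, limma adjusted p = 0.132). Without DOS.100/DOS.32 the LYVE1 difference passed (1.46, adjusted p = 0.0327), as it did with the score as a continuous term (adjusted p = 0.0328).

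Of 17 angiogenic and guidance ligands tested 2 were higher, against 2.57% of all genes tested, with a median log2 fold change of 0.50. VEGFC, which acts through FLT4, had 8.92, 24.4 and 80.4 FPKM in vessel rich tumours, against 2.53, 7.14 and 16.1 FPKM in vessel poor tumours (log2 fold change 1.80 ± 0.35, limma adjusted p = 5.09e-03). Among vessel poor tumours DOS.84, with 16.1 FPKM, overlapped the vessel rich range. SEMA3F, a class 3 semaphorin known to inhibit vessel growth, had 11.5, 23.01 and 72.3 FPKM in vessel rich tumours, against 3.30, 6.22 and 10.6 FPKM in vessel poor tumours (log2 fold change 2.08 ± 0.30, limma adjusted p = 3.85e-04), without overlap. PGF had 12.6, 46.5 and 75.8 FPKM in vessel rich tumours, against 6.51, 13.6 and 167 FPKM in vessel poor tumours (log2 fold change 0.98 ± 0.53, limma adjusted p = 0.382). ANGPT1, the TEK ligand made by pericytes, had 2.92, 9.03 and 11.4 FPKM in vessel rich tumours, against 0.372, 3.68 and 22.4 FPKM in vessel poor tumours (log2 fold change 0.62 ± 0.44, limma adjusted p = 0.525). For PGF and ANGPT1 the highest value of all 18 tumours was in a vessel poor one. VEGFA and ANGPT2 have no row under their symbols.

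Of 14 inhibitors of angiogenesis tested, 1 was higher (2.57% of all genes tested), COL18A1, the collagen from which endostatin is cut. It had 50.5, 119 and 416 FPKM in vessel rich tumours, against 20.8, 43.1 and 67.6 FPKM in vessel poor tumours (log2 fold change 1.78 ± 0.35, limma adjusted p = 5.47e-03). The median log2 fold change of the inhibitors was 1.18, and all 14 were above 0. COL18A1 is also a member of the vessel basement membrane list and is counted there again.

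Pericyte genes divided into members that separated the groups and members that did not. Of 26 listed, 19 were tested, and 7 of these were higher (2.57% of all genes tested), with a median log2 fold change of 1.09. None was called lower, and 18 had positive fold changes. The 1 negative member stood at -1.02. RGS5, a regulator of G protein signalling that marks pericytes, had 29.3, 84.0 and 115 FPKM in vessel rich tumours, against 7.55, 17.2 and 29.99 FPKM in vessel poor tumours (log2 fold change 2.21 ± 0.28, limma adjusted p = 1.22e-04). Only the lowest vessel rich tumour, DOS.46/DOS.46.2 with 29.3 FPKM, reached into the vessel poor range, whose highest was DOS.11. The potassium channel of pericytes is built from KCNJ8 and ABCC9. KCNJ8 had 3.52, 14.3 and 26.9 FPKM in vessel rich tumours, against 0.649, 2.03 and 4.93 FPKM in vessel poor tumours (log2 fold change 2.14 ± 0.32, limma adjusted p = 5.11e-04). ABCC9 had 9.44, 24.4 and 46.4 FPKM in vessel rich tumours, against 2.08, 4.98 and 6.63 FPKM in vessel poor tumours (log2 fold change 2.06 ± 0.31, limma adjusted p = 4.92e-04).

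MCAM, an adhesion molecule of pericytes and endothelium, had 79.7, 148 and 309 FPKM in vessel rich tumours, against 16.8, 33.2 and 59.6 FPKM in vessel poor tumours (log2 fold change 2.14 ± 0.28, limma adjusted p = 1.39e-04). GPR4, a receptor that senses protons, was higher too (1.76 ± 0.27, limma adjusted p = 6.27e-04). The other 2 called members, named after their values were seen, were COX4I2 and LHFP. CSPG4, the pericyte proteoglycan NG2, did not separate the groups: it had 8.64, 19.1 and 48.6 FPKM in vessel rich tumours, against 5.95, 17.1 and 51.6 FPKM in vessel poor tumours (log2 fold change 0.08 ± 0.39, limma adjusted p = 0.940). CSPG4 reached 269 FPKM in CNOB, 28.1 in OSCA.78 and 7.44 in OSCA.8, whereas RGS5 was below 0.1 FPKM in all 3 cultures. The called gene MCAM was also present there, with 155.5 FPKM in CNOB, 26.2 in OSCA.78 and 5.74 in OSCA.8. Culture levels are given here for CSPG4, RGS5 and MCAM alone. Whether such levels divide called from uncalled pericyte genes was not tested. PDGFRB has no row under its symbol. With both DOS.110 and DOS.115 left out 6 pericyte genes were higher, where 240 of all 14909 genes tested were higher.

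**Figure D4:**
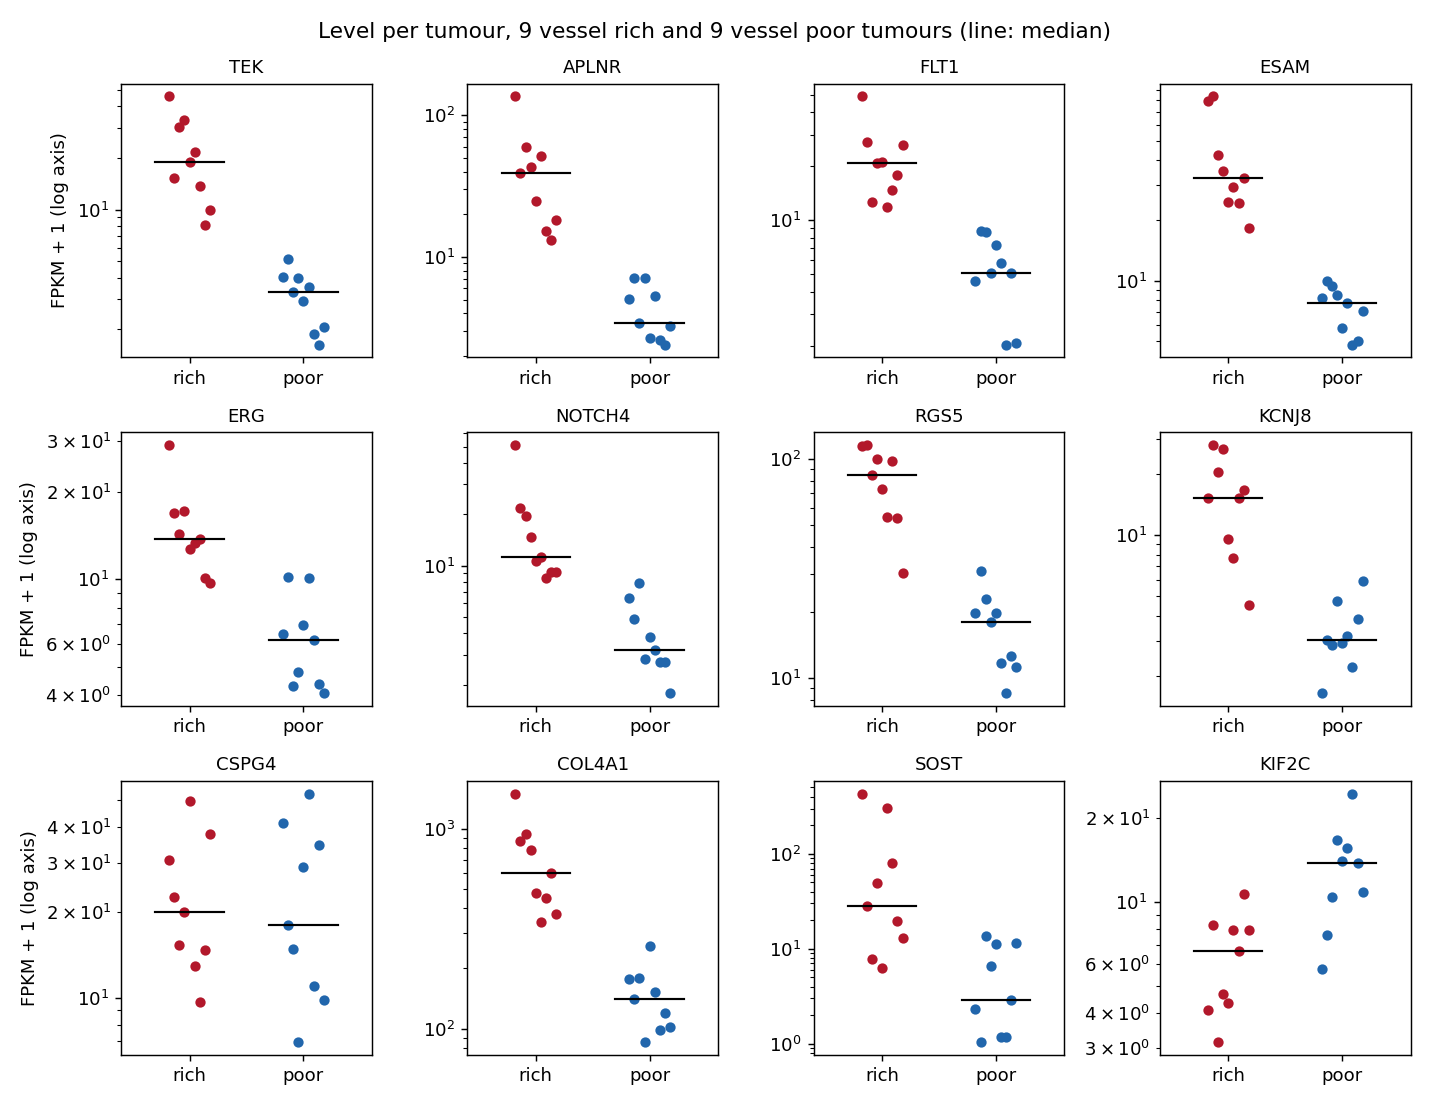
FPKM + 1 per tumour on a log axis for 12 genes, vessel rich tumours left and vessel poor tumours right, with a line at the median of 9 tumours. TEK, APLNR, FLT1, ESAM, NOTCH4 and COL4A1 do not overlap, CSPG4 overlaps throughout, and KIF2C is lower in the vessel rich tumours (median 5.68 against 12.8 FPKM).

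Smooth muscle genes, which mark the wall of larger vessels, gave no call among 10 tested, with a median log2 fold change of 0.83 and the smallest adjusted p at 0.0558. SMTN had 38.3, 49.5 and 81.0 FPKM in vessel rich tumours, against 16.7, 19.6 and 111 FPKM in vessel poor tumours (log2 fold change 1.04 ± 0.29, limma adjusted p = 0.0558). The 111 FPKM were in DOS.116, and without that tumour SMTN passed (1.31, adjusted p = 5.07e-04). It also passed with a pseudocount of 0.1, with the score as a continuous term and with DOS.100 and DOS.32 as separate tumours (adjusted p 0.0397 to 0.0497). KCNMB1, a subunit of a calcium-gated potassium channel, was at 1.56 ± 0.46 (limma adjusted p = 0.0783), and it passed without DOS.46/DOS.46.2 (adjusted p = 0.0392), DOS.105 (0.0169) or DOS.76 (0.0270), and under 4 other settings (0.0122 to 0.0343). The smooth muscle myosin MYH11 had 2.23, 6.16 and 34.9 FPKM in vessel rich tumours, against 2.04, 3.11 and 4.16 FPKM in vessel poor tumours (log2 fold change 1.10 ± 0.40, limma adjusted p = 0.179), and it passed with the score of bone matrix genes as a term (adjusted p = 0.0156). ACTA2 has no row under its symbol.

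The vessel basement membrane was higher for 6 of 14 members tested, against 2.57% of all genes tested (median log2 fold change 0.89). COL4A1 had 342, 598 and 1496 FPKM in vessel rich tumours, against 84.5, 140.3 and 257 FPKM in vessel poor tumours (log2 fold change 2.19 ± 0.28, limma adjusted p = 1.27e-04). COL4A2, encoded beside it and assembled with it into type IV collagen, had 180.4, 310.01 and 776 FPKM in vessel rich tumours, against 41.4, 77.8 and 168 FPKM in vessel poor tumours (log2 fold change 2.06 ± 0.30, limma adjusted p = 4.21e-04). Both chains separated the groups without overlap. They were also abundant in culture: CNOB had 663 FPKM of COL4A1 and 596 FPKM of COL4A2. The laminin chain LAMA5 was higher (1.80 ± 0.37, limma adjusted p = 8.36e-03) until the score of cell cycle genes was a term (adjusted p = 0.0634). The other endothelial laminin chain, LAMA4, had 92.2, 127 and 312 FPKM in vessel rich tumours, against 44.5, 97.9 and 231 FPKM in vessel poor tumours and did not pass (0.78 ± 0.30, limma adjusted p = 0.214) except with the score as a continuous term (adjusted p = 0.0132). COL15A1 was higher (1.497 ± 0.30, limma adjusted p = 6.13e-03). Another of the 6 called members is COL18A1, given above among the inhibitors of angiogenesis.

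The heparan sulphate proteoglycan perlecan, HSPG2, stood at the edge of the threshold (log2 fold change 1.30 ± 0.35, limma adjusted p = 0.0455). It had 37.6, 97.0 and 175 FPKM in vessel rich tumours, against 10.5, 40.3 and 106 FPKM in vessel poor tumours. Its call ended without any 1 of 15 of the 18 tumours (adjusted p 0.0516 to 0.102), and it remained without DOS.114, DOS.100/DOS.32 or DOS.76. It also ended under 12 other settings, among them 14 tumours against 14 (0.63, adjusted p = 0.517).

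Osteosarcoma cells make bone, and both groups carried bone transcripts. The osteoblast factor SP7 had 7.72, 49.7 and 128 FPKM in vessel rich tumours, against 25.7, 65.5 and 106 FPKM in vessel poor tumours. The 8 bone matrix genes tested summed to 5036 to 26536 FPKM in vessel rich tumours (median 16510.3), against 4623 to 23862 FPKM in vessel poor tumours (median 6591). Of these 8 genes 1 was higher, PHEX, which is also in the osteocyte list. The list did not move together: 5 log2 fold changes were positive and 3 negative (lowest -0.47). Osteocytes are bone cells embedded in mineralised matrix, and 3 of 6 of their genes tested were higher, against 2.57% of all genes tested (median log2 fold change 1.74). Of the 6, 5 were positive and 1 was negative, at -0.82 and not called. SOST, the WNT inhibitor sclerostin secreted by osteocytes, had 5.26, 27.4 and 429 FPKM in vessel rich tumours, against 0.0373, 1.85 and 12.7 FPKM in vessel poor tumours (log2 fold change 3.41 ± 0.84, limma adjusted p = 0.0323). The highest values were 429 FPKM in DOS.81 and 306 FPKM in DOS.111, and the groups overlapped. PHEX, a peptidase of mineralisation, had 1.48, 15.1 and 124 FPKM in vessel rich tumours, against 0.460, 1.83 and 3.998 FPKM in vessel poor tumours (log2 fold change 2.67 ± 0.65, limma adjusted p = 0.0279).

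DKK1, another secreted WNT inhibitor, had 2.67, 5.86 and 78.3 FPKM in vessel rich tumours, against 0, 0.609 and 15.7 FPKM in vessel poor tumours (log2 fold change 2.14 ± 0.57, limma adjusted p = 0.0494). These 3 calls depend on single tumours and on the setting. SOST no longer passed without DOS.81, DOS.110, DOS.114, DOS.84, DOS.101, DOS.116 or DOS.11 (adjusted p 0.0568 to 0.0696), and PHEX without DOS.81, DOS.114, DOS.101, DOS.116, DOS.105 or DOS.11 (0.0513 to 0.0653). DKK1 passed only without DOS.70, DOS.46/DOS.46.2 or DOS.100/DOS.32 and missed the threshold without any of the other 15 tumours (0.0558 to 0.101). With the score of cell cycle genes as a term none of the 3 passed (adjusted p = 0.0526 for SOST, 0.0735 for PHEX and 0.150 for DKK1). With the score of bone matrix genes as a term SOST (0.0683) and DKK1 (0.0815) did not pass. The same held with DOS.110 and DOS.115 averaged (0.0631 for SOST, 0.0769 for DKK1) or both left out (0.0503 and 0.120). SOST also missed the threshold with 6 tumours against 6 (0.0883), and DKK1 under 7 further settings (up to 0.117). Osteoclast genes gave no call among 7 tested (median log2 fold change 0.27), nor did cartilage genes among 9 (median -0.07). Aggrecan, ACAN, had 2.53, 32.1 and 252 FPKM in vessel rich tumours, against 16.5, 147 and 309.6 FPKM in vessel poor tumours (log2 fold change -2.01 ± 0.67, limma adjusted p = 0.136), and the difference passed without DOS.46/DOS.46.2 (adjusted p = 0.0291) and with the score as a continuous term (0.0354).

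**Figure D5:**
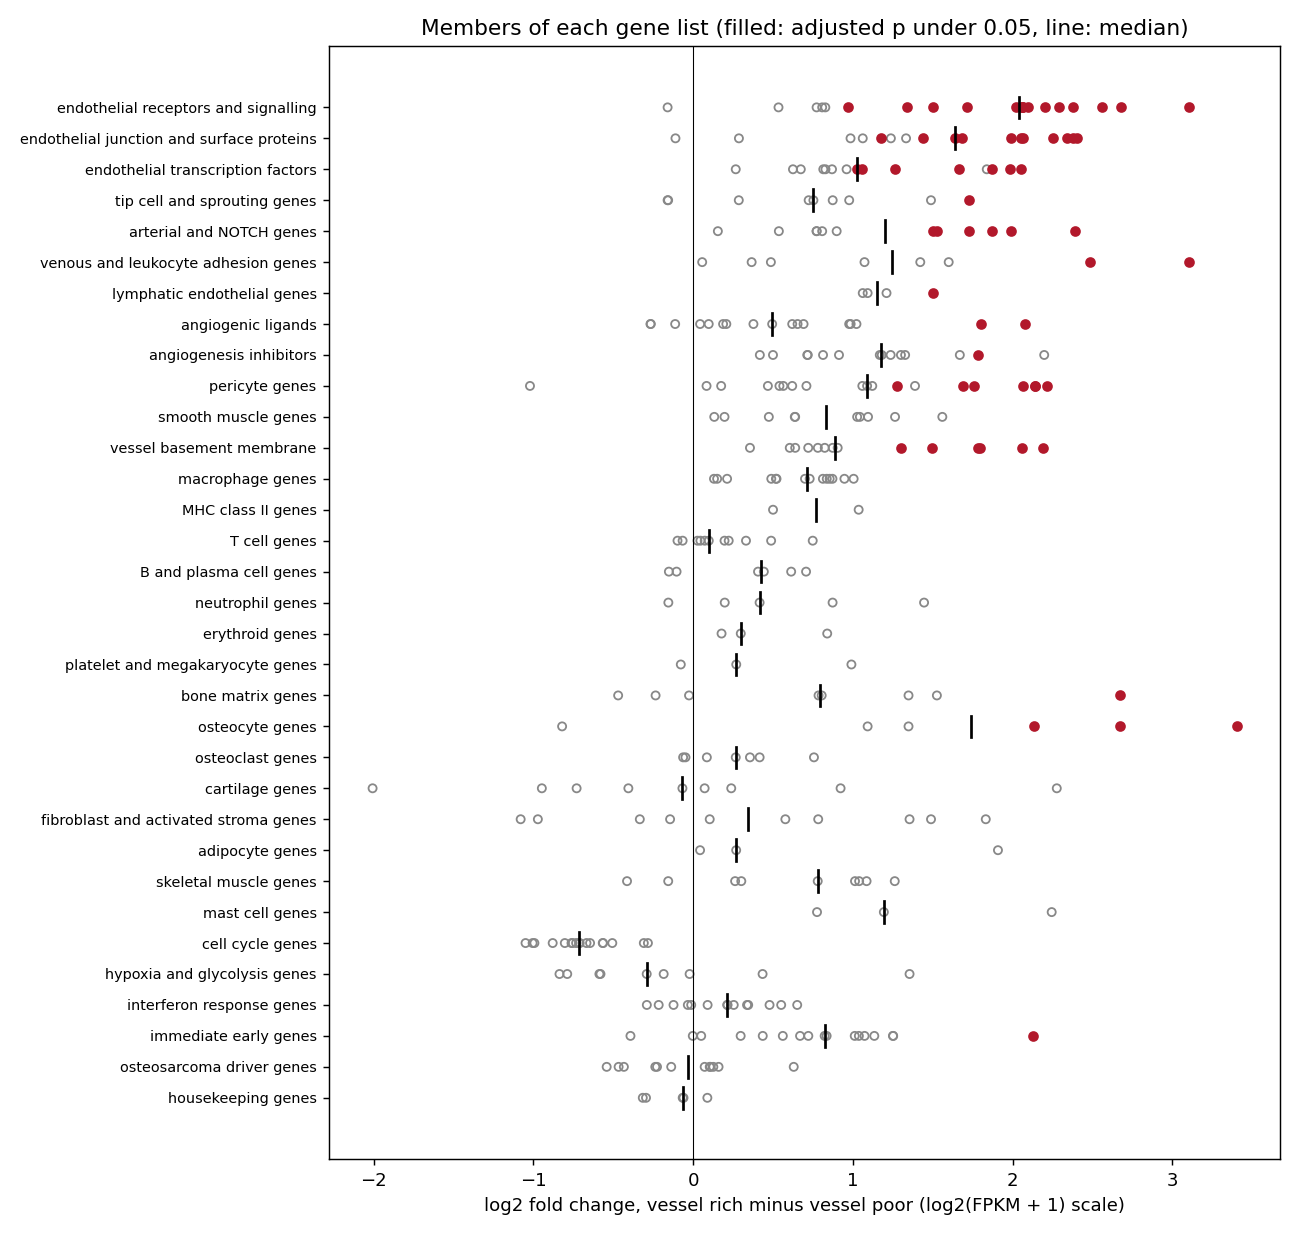
Log2 fold change, vessel rich minus vessel poor, of each tested member of 33 gene lists on the log2(FPKM + 1) scale. Filled red points passed limma at an adjusted p below 0.05, open points did not, and the vertical bar is the median of the list. Red points gather in the endothelial, arterial, pericyte and basement membrane lists and in the osteocyte list (3 of 6), while the 17 cell cycle genes lie left of 0.

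Other cell types that a tumour sample can hold were counted in the same way. Macrophage genes gave no call among 14 tested, although all 14 fold changes were positive (median 0.72). Their summed level was 269 to 1572 FPKM in vessel rich tumours (median 662), against 102 to 1229 FPKM in vessel poor tumours (median 385). The complement chain C1QC had 18.9, 100.1 and 373 FPKM in vessel rich tumours, against 24.6, 55.1 and 152 FPKM in vessel poor tumours (log2 fold change 0.84 ± 0.47, limma adjusted p = 0.399). AIF1, an actin-binding protein of macrophages, was at 1.01 ± 0.36 (limma adjusted p = 0.173). CD74, the invariant chain of MHC class II, was at 1.04 ± 0.43 (limma adjusted p = 0.248). With the score of macrophage genes as a term, 29 endothelial and 7 pericyte genes were higher, where 268 of all 14909 genes tested were higher. The part of macrophage content in the differences was not tested.

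T cell genes gave no call among 11 tested (median log2 fold change 0.10), B and plasma cell genes none among 6 (0.42), neutrophil genes none among 5 (0.42), erythroid genes none among 3 (0.30) and platelet genes none among 3 (0.27). Summed erythroid levels were 0.257 to 22.7 FPKM in vessel rich tumours (median 1.62), against 0.0589 to 2.72 FPKM in vessel poor tumours (median 1.17). Fibroblast genes gave none among 10 (0.34), adipocyte genes none among 3 (0.27) and skeletal muscle genes none among 9 (0.78). Some named members passed under another setting. S100A9 of the neutrophil list (1.45, limma adjusted p = 0.114) passed without DOS.46/DOS.46.2 (0.0445). GP9 of the platelet list (0.99, 0.169) passed with the continuous score and with DOS.100 and DOS.32 separate. TNC of the fibroblast list (-0.97, 0.188) passed without DOS.111 (0.0301). CFD of the adipocyte list (1.91, 0.250) passed with the bone matrix score as a term, as did the mast cell gene MS4A2 (1.19, 0.166). The mast cell protease CPA3 came close to the threshold: it had 0.0370, 2.32 and 64.1 FPKM in vessel rich tumours, against 0, 0.0184 and 0.326 FPKM in vessel poor tumours (log2 fold change 2.25 ± 0.62, limma adjusted p = 0.0571). Its highest values were 64.1 FPKM in DOS.110 and 17.996 FPKM in DOS.115, and it passed without DOS.70, DOS.6 or DOS.46/DOS.46.2 (adjusted p = 0.0244, 0.0485 and 0.0226) and under 5 other settings (0.00800 to 0.0495). Interferon response genes gave no call among 14 tested (median 0.21), osteosarcoma driver genes none among 12 (-0.03) and housekeeping genes none among 5 (-0.06). Of 17 immediate early genes 1 was higher (2.57% of all genes tested), CTGF, a matrix-associated growth factor (2.13 ± 0.51, limma adjusted p = 0.0264). CTGF had 82.0, 257 and 769 FPKM in vessel rich tumours, against 8.06, 59.3 and 175 FPKM in vessel poor tumours, and it did not pass without DOS.81 (adjusted p = 0.0611) or DOS.110 (0.0555), nor with both DOS.110 and DOS.115 left out (0.102) or averaged (0.0521). Its call also ended with the score of cell cycle genes (0.186) or of macrophage genes (0.0562) as a term, and with PECAM1 left out of the score (0.0513).

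Cell cycle genes lay on the other side of 0. All 17 tested had a negative log2 fold change, with a median of -0.71, and none passed. The mitotic kinase AURKB had 8.81, 12.5 and 36.2 FPKM in vessel rich tumours, against 8.35, 35.1 and 77.4 FPKM in vessel poor tumours (log2 fold change -0.99 ± 0.36, limma adjusted p = 0.172). BUB1, a kinase of the spindle checkpoint, had 2.87, 8.77 and 16.6 FPKM in vessel rich tumours, against 3.004, 19.6 and 35.3 FPKM in vessel poor tumours (log2 fold change -1.004 ± 0.39, limma adjusted p = 0.215). The lowest vessel poor values of BUB1 and AURKB were in DOS.76, the tumour at the limit of the group. Without DOS.76 both passed, BUB1 at -1.29 (adjusted p = 0.0238) and AURKB at -1.22 (adjusted p = 0.0322), and the number of lower genes over all genes was 115. Both also passed with the score as a continuous term (adjusted p = 0.0478 for BUB1, 0.0387 for AURKB), with 6 tumours against 6 (0.0168 and 0.0250), with PLVAP left out of the score (0.0460 and 0.0187) and with DOS.100 and DOS.32 as separate tumours (0.0256 and 0.0296). Hypoxia and glycolysis genes gave no call among 9 tested (median log2 fold change -0.29), and the glycolytic enzyme ENO1 had 61.1, 142 and 295 FPKM in vessel rich tumours, against 77.8, 245 and 596 FPKM in vessel poor tumours (log2 fold change -0.84 ± 0.36, limma adjusted p = 0.259), and the difference passed with 6 tumours against 6 (adjusted p = 0.00721).

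Of the 41 genes lower in vessel rich tumours 35 have a symbol. NDC1, a membrane protein of the nuclear pore, separated the groups without overlap: it had 5.42, 9.15 and 10.6 FPKM in vessel rich tumours, against 11.7, 17.7 and 31.8 FPKM in vessel poor tumours (log2 fold change -1.12 ± 0.19, limma adjusted p = 1.38e-03). Among called genes with a symbol the largest fall was that of FKBP4, a co-chaperone of HSP90, with 33.1, 55.0 and 112 FPKM in vessel rich tumours, against 65.8, 135 and 434 FPKM in vessel poor tumours (log2 fold change -1.27 ± 0.33, limma adjusted p = 0.0423). KIF2C, a kinesin that depolymerises microtubules in mitosis, had 2.15, 5.68 and 9.66 FPKM in vessel rich tumours, against 4.75, 12.8 and 23.4 FPKM in vessel poor tumours (log2 fold change -1.03 ± 0.28, limma adjusted p = 0.0472). The lipoprotein receptor LRP8 (-1.13 ± 0.25, limma adjusted p = 0.0146), the nuclear envelope protein TMEM194A (-1.03 ± 0.22, limma adjusted p = 9.99e-03), the MYC-binding protein CDCA7L (-0.996 ± 0.20, limma adjusted p = 6.13e-03) and PRRT4 (-1.23 ± 0.21, limma adjusted p = 1.65e-03) were lower too.

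The remaining genes among the 12 largest falls of genes with a symbol were the non-muscle myosin MYH14 (-1.25), the sarcoglycan SGCD (-1.16), the leukocyte protein CD101 (-1.16), the homeobox factor HOXC13 (-1.09) and the transcription factor TFAP4 (-1.05), with limma adjusted p between 0.0255 and 0.0485. Most of these calls depended on single tumours. FKBP4 kept its call only without DOS.111, DOS.6, DOS.112, DOS.84 or DOS.76 (adjusted p up to 0.0888 otherwise) and KIF2C only without DOS.111, DOS.6, DOS.46/DOS.46.2, DOS.11 or DOS.76 (up to 0.103). HOXC13 kept its call only without DOS.81, DOS.114, DOS.6, DOS.84 or DOS.76 (up to 0.101) and SGCD only without DOS.70, DOS.114, DOS.46/DOS.46.2, DOS.112, DOS.105 or DOS.76 (up to 0.0806). CD101 kept its call without DOS.111, DOS.46/DOS.46.2, DOS.112, DOS.116, DOS.105, DOS.8, DOS.11 or DOS.76 and lost it without any other tumour (up to 0.0769). MYH14 lost its call without DOS.81, DOS.113, DOS.115, DOS.110, DOS.101, DOS.116, DOS.105, DOS.100/DOS.32 or DOS.11 (up to 0.0706), and TFAP4 without DOS.81 or DOS.110 (0.0564 and 0.0567). The calls of NDC1, LRP8, TMEM194A, CDCA7L and PRRT4 held whichever tumour was left out. With 14 tumours against 14, NDC1 (adjusted p = 0.136) and TMEM194A (0.158) no longer passed, nor did LRP8 with 6 against 6 (0.129) or CDCA7L with the score of cell cycle genes as a term (0.0560). TMEM194A also missed the threshold with PECAM1 left out of the score (0.0616), with the score of cell cycle genes as a term (0.0800) and with DOS.110 and DOS.115 averaged (0.0645), and LRP8 with PECAM1 left out of the score (0.0848). The calls of FKBP4, KIF2C, HOXC13, SGCD, CD101, MYH14 and TFAP4 each ended under 5 or more of the 20 settings other than leaving out 1 tumour. With both DOS.110 and DOS.115 left out, 12 genes in all were lower.

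Among called genes with a symbol the largest rise was that of a lipoprotein gene. Another 54 of the 383 higher genes have no symbol and were not named. APOA1, the main protein of high density lipoprotein, had 7.75, 35.5 and 409 FPKM in vessel rich tumours, against 0.893, 2.59 and 7.04 FPKM in vessel poor tumours (log2 fold change 3.68 ± 0.67, limma adjusted p = 3.20e-03). The groups did not overlap, and the highest levels were 409 FPKM in DOS.110 and 260.1 FPKM in DOS.70, while DOS.81, the tumour with the highest score, had 35.5 FPKM. FAM167B had 15.5, 36.6 and 115 FPKM in vessel rich tumours, against 0.770, 6.04 and 14.5 FPKM in vessel poor tumours (log2 fold change 2.91 ± 0.43, limma adjusted p = 4.42e-04), also without overlap. The calcium-binding protein S100A16 (2.70 ± 0.43, limma adjusted p = 8.25e-04) and MALL, a membrane protein related to MAL (2.44 ± 0.38, limma adjusted p = 6.68e-04), were higher as well. S100A16 overlapped between the groups, with 6.59 FPKM in the lowest vessel rich and 11.2 FPKM in the highest vessel poor tumour. It had 256 FPKM in the culture CNOB, above the 79.1 FPKM of its highest vessel rich tumour.

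F13A1, the A chain of coagulation factor XIII, which macrophages and platelets carry, had 32.1, 74.6 and 267 FPKM in vessel rich tumours, against 0.421, 14.1 and 52.5 FPKM in vessel poor tumours (log2 fold change 2.64 ± 0.59, limma adjusted p = 0.0172). The macrophage sums given above moved the same way without a call of a single macrophage gene, and with their score as a term the F13A1 difference was 2.54 (adjusted p = 0.0519). Its call also ended with the score of cell cycle genes as a term (0.0904), with 14 tumours against 14 (0.0638), with 6 against 6 (0.0623) and with DOS.110 and DOS.115 averaged (0.0662). DNASE1L3, a secreted nuclease, had 9.47, 24.5 and 81.6 FPKM in vessel rich tumours, against 1.42, 2.63 and 25.04 FPKM in vessel poor tumours (log2 fold change 2.56 ± 0.46, limma adjusted p = 2.76e-03). The 25.04 FPKM were in DOS.76, and the other vessel poor tumours were at 4.57 FPKM or less. The DNASE1L3 call ended when PECAM1 was left out of the score (adjusted p = 0.0635).

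The 3 cultures had almost no transcripts of the score genes. The score was 0.137 in OSCA.8, 0.162 in OSCA.78 and 0.406 in CNOB, against 4.05 in the lowest tumour. Of the 383 genes higher in vessel rich tumours, 100 (26.1%) were below 1 FPKM in all 3 cultures, against 1932 of all 14909 genes tested (12.96%). Of the 41 lower genes it was 2 (4.88%). KIF2C had 3.09 FPKM in CNOB, 22.04 in OSCA.78 and 14.7 in OSCA.8, and NDC1 had 9.25, 25.7 and 20.5 FPKM there. The metastasis DOS.6M scored 5.81, within the range of the tumours between the groups, with 107 FPKM of PLVAP, 68.9 of PECAM1 and 22.3 of CDH5. Its genes did not share 1 position: RGS5 had 58.2 FPKM in DOS.6M, inside the vessel rich range, while APLNR had 1.23 FPKM, below every vessel poor tumour. The title of DOS.6M repeats the number of DOS.6, a vessel rich tumour that scored 6.96. DOS.6 had 53.3 FPKM of RGS5 and 12.1 FPKM of APLNR. Whether both came from the same dog was not tested. With 1 metastasis library there is no test.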

How the data were processed

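Gene expression was measured in 34 libraries (total RNA, TruSeq RNA v2, per the labels' protocols). The authors deposited 1 table with 23988 rows and 1 column per library, and its header names no unit. The deposited values were taken to be FPKM (fragments scaled to transcript length and library size), since the tools named in the submitters' processing notes, with no roles or order, are FastQC 0.11.2, TopHat2 2.0.13 and Cufflinks 2.2.1, with the build canFam3. Annotation, parameters and the meaning of the word masked in the table's title were not given in the sources used here. Depth in reads is unknown. Between 48.9% and 63.5% of ratios between low values fell on steps of whole fragments, from which a relative depth was read. The share that falls on such steps by chance was not computed, so the relative depth is approximate.

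The table was used as deposited. Rows with only an Ensembl identifier (9653) were tested but not named. Genes with at least 1 FPKM in at least 2 of 28 tumours were kept, without PLVAP, PECAM1 and CDH5, and 1 FPKM was added before the log2 transformation, which understates fold changes of low genes. Groups were compared in limma 3.58.1 under R 4.3.3 (two-sided, lmFit and eBayes with the trend and robust settings, no covariates), with Benjamini-Hochberg adjustment over 14909 genes and a threshold of 0.05. The groups were ranked on transcripts of the same libraries that were then tested. The script was tested on simulated data. A sum of a list adds the FPKM of its tested members, and a list score is their mean log2(FPKM + 1).

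The groups, members and gene lists were chosen with earlier results of these data known. Named genes are the 12 largest called changes in each direction among genes with a symbol, up to 5 called members per list and direction by adjusted p (2 by p where none was called) and a set of vessel genes named whatever their values. Alternatives were another pseudocount, other filters, other scalings, other group sizes, scores without 1 of the 3 genes, the score as a continuous term, separate libraries, cell type scores as terms, each tumour left out in turn, and 2 settings for DOS.110 and DOS.115 that were added after seeing the data. Coordinates and sequences are not given, since no table of the build named in the notes was used here. Python 3.11.15 with numpy 2.4.6, pandas 2.3.3, scipy 1.17.1 and matplotlib 3.10.9 served for summaries and figures.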

Additional observations from a re-analysis of the deposited data

Results flagged for a closer look

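In 208 groups of 9 tumours (104 named genes in both groups), 17 had 1 tumour far from the other 8, with a gap of more than 0.493 of the group's range on the log2(FPKM + 1) scale. Values are given in FPKM. Chance flags about 1 in 20 groups. The secreted nuclease DNASE1L3 was 25.04 FPKM in DOS.76, against at most 4.57 FPKM in the other vessel poor tumours, and the endothelial gene PROCR was 14.4 FPKM in DOS.8, against at most 6.02 FPKM. BCL6B was 61.0 FPKM in DOS.81, against at most 22.6 FPKM in the other vessel rich tumours. Among wall and matrix genes in vessel poor tumours, SMTN was 111 FPKM in DOS.116, against at most 30.1 FPKM, and COL15A1 was 137 FPKM in DOS.105, against at most 55.6 FPKM.

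Genes of blood cells were flagged in both groups. In vessel rich tumours CD22 was 10.3 FPKM in DOS.115, S100A9 was 42.9 FPKM in DOS.114 and GP9 was 15.3 FPKM in DOS.70. In vessel poor tumours S100A9 was 4.04 FPKM in DOS.8, GP9 was 2.46 FPKM in DOS.76, CD6 was 4.41 FPKM in DOS.105 and CPA3 was 0.326 FPKM in DOS.116. Muscle genes stood out as ACTA1 with 81.9 FPKM in DOS.110 (vessel rich) and MB with 2.30 FPKM in DOS.84 (vessel poor). DKK1 was 15.7 FPKM in DOS.100/DOS.32, against at most 2.87 FPKM in the other vessel poor tumours. A low tumour was flagged for BUB1, 3.004 FPKM in DOS.76 against at least 12.6 FPKM in the other vessel poor tumours, and for CTGF, 8.06 FPKM in DOS.101 against at least 38.5 FPKM.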

How the results depend on the processing

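No paired analysis was possible because the labels number no tumours across the groups. Of the 58 named genes called, 36 were called in all 38 other settings and 46 in all 18 that leave out 1 tumour. Leaving out 1 tumour gave 276 to 594 genes in all (276 without DOS.81, 594 without DOS.76), 259 to 479 higher, 16 to 115 lower, 29 to 35 endothelial and 7 to 9 pericyte genes. The lower genes moved by over 1.5 times without DOS.110 (16), DOS.81 (17), DOS.101 (18), DOS.115 (19), DOS.70 (23) or DOS.76 (115). The endothelial count ran between 25 (score of cell cycle genes as a term) and 40 (continuous score), and the pericyte count between 5 and 9. Totals moved to 845 with the continuous score (721 higher, 124 lower), 714 with 6 tumours against 6 (197 lower), 789 with DOS.100 and DOS.32 as separate tumours (603 higher, 186 lower), 277 with the score of macrophage genes as a term (9 lower), 178 with that of cell cycle genes (168 higher, 10 lower), 278 with DOS.110 and DOS.115 averaged (15 lower) and 252 with both left out (240 higher, 12 lower). The lower genes alone moved to 71 with quantile normalisation, 24 with 14 tumours against 14, 130 without PLVAP in the score and 18 without PECAM1. Higher genes were 90.3% of the calls, against 72.4% with 6 tumours against 6, 77.2% without PLVAP and 76.4% with DOS.100 and DOS.32 separate. Of the 424 genes called, 171 were also called with the cell cycle term and 238 with DOS.110 and DOS.115 left out. The cause of these shifts was not tested. Signs were compared for the 101 named genes tested, not for all genes called. Among these named genes the sign turned only in genes that were not called: TCIRG1 (-0.0488 with the macrophage term), NFATC1 (-0.15 with the cell cycle term), PLIN1 (-0.00398 with the cell cycle term, -0.0738 with DOS.110 and DOS.115 left out) and CSPG4 (-0.0314 without PLVAP, -0.0338 with the bone matrix term, -0.137 with the cell cycle term, -0.0586 with DOS.110 and DOS.115 averaged, and -0.103 to 0.262 when 1 tumour was left out). Depth in reads is unknown, so the counting error of low values such as those of CPA3 cannot be given.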

Other observations

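DOS.85, one of the tumours between the groups (score 6.13), was not uniform in its levels of the genes named above. Its PECAM1 level of 143 FPKM was inside the vessel rich range, while its CDH5 level of 17.99 FPKM was inside the vessel poor range. TEK (19.9 FPKM), the pericyte gene RGS5 (93.4 FPKM), CCL14 (85.3 FPKM) and DNASE1L3 (60.1 FPKM) in DOS.85 were inside the vessel rich range, and the pericyte proteoglycan CSPG4 (1.17 FPKM) and the perlecan gene HSPG2 (6.84 FPKM) were below the vessel poor range. DOS.57 (score 5.95) shared part of this, with 111 FPKM of PECAM1, 15.9 FPKM of CDH5, 53.7 FPKM of DNASE1L3 and 3.21 FPKM of CSPG4. Both tumours were picked out after their values were seen and entered no test.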
